A study of Homo sapiens with 12 samples.

Results

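The core hepatocyte transcription factors described here are the DNA-binding proteins HNF4A, FOXA1, FOXA2, FOXA3, CEBPA, GATA4, GATA6 and ONECUT1, chosen by their symbols in the count table. All 8 were among the 26485 genes of the table, and all 8 passed the filter on low counts that left 15289 genes for testing. RNA was sequenced from HepG2, a human hepatoma cell line in wide use that secretes plasma proteins of the liver. Lipofection brought a CRISPR vector into the cells, blasticidin was applied 48 h later, and the stable line that grew out was seeded in 3 wells. The Z2, Z5 and Z9 lines carried the vectors sgZHX3-2, sgZHX3-5 and sgZHX3-9 and are labelled ZHX3-depleted, ZHX3 being a zinc-finger and homeobox protein. The Empty line carried an empty CRISPR vector and is labelled WT. All 4 lines went through the same transfection and selection. Each is 1 stable line, and whether it grew from 1 clone is not given in the sources used here. With 1 Empty line, the vector and the history of that line cannot be told apart, and each p-value below rests on the well-to-well spread (n = 3 per line).

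Hepatocyte identity is held by a small network of such factors that bind each other's genes and the genes of plasma proteins and metabolism. FOXA proteins are forkhead pioneer factors that can bind closed chromatin, and GATA4 acts beside them in early liver development. HNF4A is a nuclear receptor at the centre of the network, CEBPA is a basic leucine zipper factor of the mature, non-dividing hepatocyte, and ONECUT1 (HNF6) is a cut-homeodomain factor of liver and bile duct development. GATA6 is a close relative of GATA4 in endoderm.

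Library totals ranged from 50864744 counts in Empty a to 65428204 counts in Empty c. ZHX3 mRNA itself was not called changed in any line, with log2 fold changes against Empty of 0.061 in Z2, -0.0040 in Z5 and 0.054 in Z9 (adjusted p = 0.402, 0.972 and 0.490), and an RNA count does not show whether a CRISPR edit is present. All 10 hepatocyte markers reached 1 CPM (counts scaled to library size), and their summed level was 59470 to 64370 CPM in Z2, 61770 to 63290 in Z5, 57760 to 59110 in Z9 and 64100 to 65750 in Empty. That sum leans on the most abundant marker in Empty, ALB, which averaged 17530 CPM there, 11520 in Z2, 11480 in Z5 and 11970 in Z9. Of the 10, 4 were called higher and 2 lower over the mean of the lines, against 13% and 12.6% of all tested genes. Well b of Z2 stood apart, since its counts gave a chi-square per degree of freedom of 44.6 against well a and 31.2 against well c of that line, where counting error alone gives about 1, and all other pairs of wells of a line gave 6.19 to 20.3. Calls that change without it are given both ways.

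The levels of CEBPA and GATA6 were lower in every well of Z2, Z5 and Z9 than in every Empty well, which holds for 8.31% of all tested genes. Over the mean of the 3 lines CEBPA fell by 33.6% and GATA6 by 32.5%. FOXA1 fell by 15.3% and GATA4 by 19.2% in the same comparison. No call was made for HNF4A, FOXA2, FOXA3 or ONECUT1 over the mean of the lines, and the 95% confidence intervals of their fold changes were 0.890 to 1.03, 0.966 to 1.09, 0.859 to 0.984 and 0.944 to 1.22. Of the 8 factors, 4 were thus called lower (edgeR quasi-likelihood test, Benjamini-Hochberg adjusted p under 0.05 over all tested genes), while 12.6% of all tested genes were called lower and 25.6% were called in either direction. The median log2 fold change of the 8 factors was -0.18, and that of all tested genes was 0.0029. A lower count in a bulk library can come from fewer cells that express the gene or from less RNA per cell, and these cannot be told apart.

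**Figure D1:**
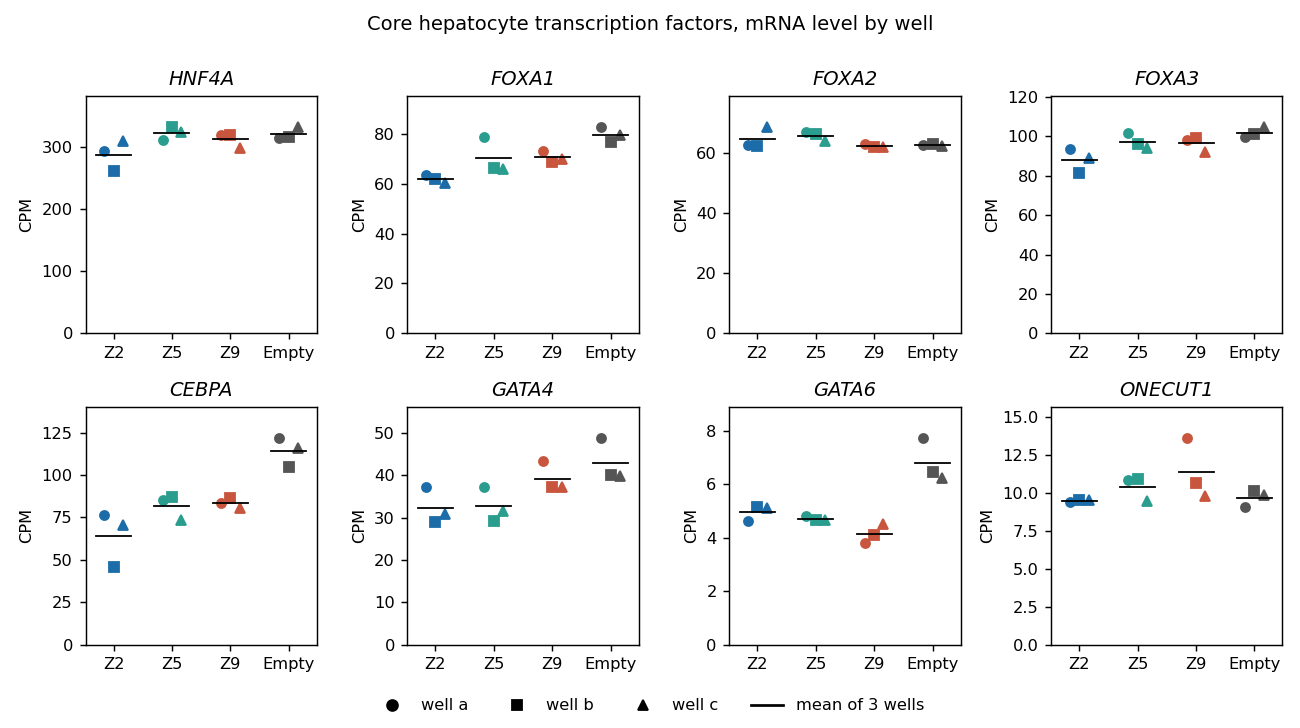
Level of each factor in CPM on the vertical axis, by line on the horizontal axis, with 1 symbol per well (a circle, b square, c triangle) and a bar at the mean of 3 wells. In the CEBPA and GATA6 panels, all 9 wells of Z2, Z5 and Z9 lie below the Empty wells, as for 8.31% of all tested genes, while the HNF4A, FOXA2 and ONECUT1 panels overlap.

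FOXA1, on chromosome 14 (chr14:37589552-37595249, minus strand, GRCh38.p14), had 63.6, 62.0 and 60.5 CPM in Z2, 79.0, 66.4 and 65.8 CPM in Z5, 73.3, 68.8 and 69.9 CPM in Z9, and 83.0, 76.7 and 79.6 CPM in Empty, each in wells a, b and c. The Z2 and Z9 wells were all below Empty, and 1 Z5 well, a, overlapped the Empty range. The log2 fold change was -0.36 ± 0.064 (SE) in Z2 (adjusted p = 6.2e-04), -0.18 ± 0.063 in Z5 (0.0655) and -0.17 ± 0.063 in Z9 (0.0619), so FOXA1 was called in Z2 and in the mean of the lines (-0.24 ± 0.051, adjusted p = 0.00237). The mean was called with any 1 library left out, at adjusted p of 1.7e-04 to 0.0293. Without Z2 b, FOXA1 was also called in Z5 and Z9 (adjusted p = 0.0427 and 0.0406), and without Z5 a likewise (0.00413 and 0.0226). TTC6, which shares 213 bases with FOXA1 in the GENCODE annotation, had 480 to 771 counts per library.

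FOXA2, on chromosome 20 (chr20:22580998-22585490, minus strand), is the member of the family that endoderm formation depends on in the mouse. Its levels were 62.5, 62.1 and 68.6 CPM in Z2, 66.7, 66.0 and 63.7 CPM in Z5, 62.9, 61.7 and 61.8 CPM in Z9, and 62.6, 62.9 and 62.0 CPM in Empty. Of the 9 wells, 2 lay below and 5 above the narrow Empty range. Against Empty, the log2 fold change was 0.044 ± 0.049 in Z2 (adjusted p = 0.555), 0.068 ± 0.049 in Z5 (0.393), -0.0073 ± 0.049 in Z9 (0.939) and 0.035 ± 0.040 in the mean (0.565).

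FOXA3, on chromosome 19 (chr19:45864326-45873797, plus strand), is abundant in the adult liver. It had 93.7, 81.2 and 88.8 CPM in Z2, 102, 96.2 and 94.0 CPM in Z5, 98.3, 99.1 and 91.9 CPM in Z9, and 99.8, 101 and 105 CPM in Empty. All wells but Z5 a were below the lowest Empty well, by small margins in Z9 a and Z9 b. FOXA3 was called lower in Z2 (log2 fold change -0.21 ± 0.057, adjusted p = 0.0121) and not in Z5 (-0.066 ± 0.057, 0.476), Z9 (-0.081 ± 0.057, 0.351) or the mean (-0.12 ± 0.046, 0.0653). The mean was called without Z2 a, Z2 b or Z5 a (adjusted p = 0.0242, 0.0437 and 0.0482).

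The balance within the family was taken as a ratio of counts inside each library, which does not depend on scaling between libraries. The ratio of FOXA1 to FOXA2 counts was 1.02, 0.998 and 0.882 in the Z2 wells, 1.18, 1.01 and 1.03 in Z5, 1.17, 1.11 and 1.13 in Z9, and 1.33, 1.22 and 1.28 in Empty. All 9 wells of the labelled lines were below all 3 Empty wells. The log2 ratio differed by -0.27 between the 9 wells and the 3 Empty wells (two-sided exact permutation test, p = 0.004545, the smallest the 220 regroupings can give; 0.01364 adjusted over 3 ratios). With any 1 library left out, the wells stayed apart, with differences of -0.31 to -0.24 over all 12 omissions. The permutation test then made no call without Z2 a (adjusted p = 0.0636) or without Z2 b, Z5 b or Z5 c (0.0727). The adjusted p was 0.0818 without Empty a and 0.0545 without Empty b or Empty c. Omitting an Empty well cannot decide the matter, since 0.0545 is the smallest that 2 Empty wells allow for this ratio alone.

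The ratio of FOXA3 to FOXA2 counts averaged 1.37 in Z2, 1.49 in Z5, 1.55 in Z9 and 1.63 in Empty, with 8 of 9 wells below all Empty wells. Its log2 difference was -0.16 (exact permutation p = 0.0364, adjusted 0.0545). The wells of a line share that line, so these tests over wells are not tests over independently made lines.

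**Figure D2:**
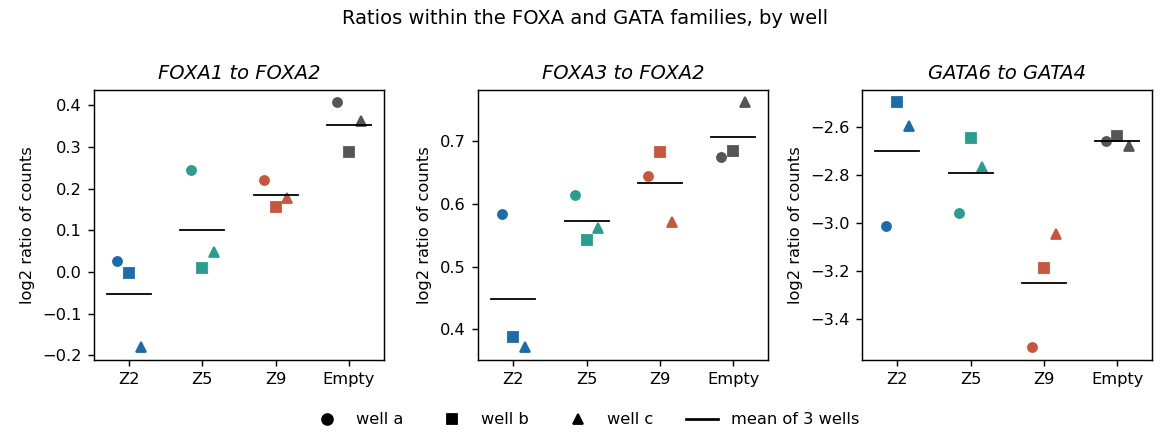
Log2 ratio of counts of 2 factors in the same library, on the vertical axis, by line, with 1 symbol per well and a bar at the mean of 3 wells. The FOXA1 to FOXA2 ratio of every Z2, Z5 and Z9 well is below the Empty wells, whereas the GATA6 to GATA4 ratio is spread on both sides of them in Z2 and lowest in Z9.

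Reference promoters of the 2 FOXA genes with an entry in the RefSeq promoter table (GRCh38.p14) are shown because FOXA1 and FOXA3 were called lower in at least 1 line. Each runs from 250 bases before the start to 50 bases after it, 5′ to 3′ on the gene's strand. Capitals in FOXA1 (chr14:37595200-37595499, minus strand) mark GCAAACA, the reverse complement of the forkhead consensus TGTTTNC, at position -235 from the start. Capitals in FOXA3 (chr19:45864076-45864375, plus strand) mark the TATA box letters TATAAA, at -30.
FOXA1: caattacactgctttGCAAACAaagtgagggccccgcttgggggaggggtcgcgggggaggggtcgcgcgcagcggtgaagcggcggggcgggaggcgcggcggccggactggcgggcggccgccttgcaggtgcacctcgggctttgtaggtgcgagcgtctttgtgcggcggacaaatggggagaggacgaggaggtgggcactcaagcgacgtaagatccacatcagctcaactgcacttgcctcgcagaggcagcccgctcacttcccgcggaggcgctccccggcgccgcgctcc
FOXA3: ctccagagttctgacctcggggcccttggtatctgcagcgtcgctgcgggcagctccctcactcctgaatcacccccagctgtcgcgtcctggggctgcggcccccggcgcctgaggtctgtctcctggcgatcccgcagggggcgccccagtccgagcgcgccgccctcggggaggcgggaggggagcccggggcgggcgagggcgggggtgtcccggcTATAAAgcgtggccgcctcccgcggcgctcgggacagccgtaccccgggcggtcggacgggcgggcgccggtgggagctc
Searched on both strands, TGTTTNC is found in 18% and TATAAA in 11.5% of the 35116 promoters of the same length in that table, so neither match is rare. They are matches of letters in the reference genome, and binding was not measured.

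HNF4A, on chromosome 20 (chr20:44355699-44434596, plus strand), had the highest counts of the 8. Its levels were 293, 261 and 309 CPM in Z2, 311, 332 and 325 CPM in Z5, 320, 320 and 299 CPM in Z9, and 315, 316 and 333 CPM in Empty. The Z2 wells were all below the Empty range, and the Z5 and Z9 wells overlapped it, with 1 well of each line below. No comparison was called, with log2 fold changes of -0.16 ± 0.060 in Z2 (adjusted p = 0.0605), 0.0063 ± 0.060 in Z5 (0.962) and -0.038 ± 0.060 in Z9 (0.705). Z2 was called without well c of that line (-0.22, adjusted p = 0.0240).

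The RefSeq table lists 2 promoters for HNF4A, 1 upstream (chr20:44355449-44355748) and 1 near the liver-type first exon (chr20:44400989-44401288), and counts per gene do not separate transcripts that start at either. The upstream one is shown because it is the 1 member promoter of the table with the letters of a GATA site. Capitals mark AGATAA at -26 from the start and ATTGG, the reverse complement of the NF-Y box letters CCAAT, at -225.
HNF4A: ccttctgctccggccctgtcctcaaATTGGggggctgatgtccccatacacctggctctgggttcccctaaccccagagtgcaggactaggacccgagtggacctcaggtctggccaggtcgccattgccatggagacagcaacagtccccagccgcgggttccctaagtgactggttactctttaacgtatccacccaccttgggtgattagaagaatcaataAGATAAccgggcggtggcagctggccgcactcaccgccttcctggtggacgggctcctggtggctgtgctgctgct
On either strand, AGATAA is in 10.3% and CCAAT in 34.6% of all promoters of the table. The HNF4 consensus CAAAGTCC (1.2% of promoters) and the C/EBP palindrome TTGCGCAA (0.151%) were in none of the 7 promoters of the 6 factors with an entry, which says only that these letters are not in those windows. FOXA2 and GATA4 were not among the entries.

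CEBPA, a single-exon gene on chromosome 19 (chr19:33299934-33302534, minus strand), had 76.4, 45.5 and 70.8 CPM in Z2, 85.3, 87.0 and 73.2 CPM in Z5, 83.5, 86.4 and 80.4 CPM in Z9, and 122, 105 and 116 CPM in Empty. Every well of the labelled lines was below every Empty well, which holds for 8.31% of all tested genes, and the lowest was Z2 b. The log2 fold change was -0.83 ± 0.157 in Z2 (adjusted p = 0.00396), -0.48 ± 0.156 in Z5 (0.0634), -0.46 ± 0.156 in Z9 (0.0663) and -0.59 ± 0.123 in the mean (0.00574, fold 0.664, 95% confidence interval 0.549 to 0.802). CEBPA was therefore called in Z2 and in the mean, and the direct test of Z9 minus Z2 (0.38 ± 0.157, adjusted p = 0.177) and of Z5 minus Z2 (0.35 ± 0.157, 0.487) made no call.

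The spread of CEBPA among the Z2 wells came to a CV (SD over mean) of 25.7%, higher than for 97.3% of genes at 1 CPM or more in that line. Without Z2 b, the log2 fold change was -0.64 in Z2, and CEBPA was called in Z5 and Z9 as well (adjusted p = 1.1e-04 and 1.5e-04), with fold changes of -0.48 and -0.46. Without Z2 a the calls in Z5 and Z9 were also made (0.0430 and 0.0459). The mean of the lines was called with any 1 library left out, at adjusted p up to 0.0419.

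CEBPA is rich in G and C: 65.9% of the bases of its longest GENCODE transcript. In Z2 b its log2 CPM lay 0.88 below its mean over the 12 libraries, which includes the lower level of the Z2 line. Its deviation from that mean was -0.128 in Z2 a and -0.239 in Z2 c. The 672 tested genes within 2 points of its GC content, each set against its own mean over the 12 libraries, had a median deviation of -0.20 in Z2 b. Their median was 0.0084 in Z2 a and -0.0017 in Z2 c. Over the mean of the lines minus Empty, those genes had a median log2 fold change of -0.011, against -0.59 for CEBPA. The part of base composition in the Z2 b value was not tested.

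The CEBPA promoter (chr19:33302485-33302784, minus strand) is shown as that of the factor with the largest fall in Z2. It is 80.7% G and C, against a median of 58.7% for all promoters of the table, and its capitals mark TATAAA at -30 from the start, the same place as in FOXA3.
CEBPA: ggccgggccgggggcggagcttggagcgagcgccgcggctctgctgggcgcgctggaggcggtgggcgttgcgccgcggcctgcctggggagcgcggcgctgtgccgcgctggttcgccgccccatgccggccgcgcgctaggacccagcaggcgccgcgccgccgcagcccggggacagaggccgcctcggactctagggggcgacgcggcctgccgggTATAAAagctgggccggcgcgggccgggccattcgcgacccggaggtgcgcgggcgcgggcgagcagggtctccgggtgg
CEBPA-AS1, the non-coding gene transcribed away from the other side of this start site, does not overlap CEBPA. It was called lower in Z2 (log2 fold change -0.53, adjusted p = 0.0124) and averaged -0.30 ± 0.113 over the lines (0.0588; called without Z2 a, 0.0274, or Z9 b, 0.0365), with 3.88 ± 0.752 CPM in Z2, 4.90 ± 0.490 in Z5, 4.98 ± 0.741 in Z9 and 5.61 ± 0.426 in Empty (SD, n = 3 wells each). Antisense genes that lie over CEBPA in the GENCODE annotation were not analysed here.

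GATA4, on chromosome 8 (chr8:11676935-11760002, plus strand), had 37.3, 28.9 and 30.9 CPM in Z2, 37.2, 29.2 and 31.6 CPM in Z5, 43.4, 37.2 and 37.2 CPM in Z9, and 48.9, 40.1 and 39.8 CPM in Empty. Z9 a was the 1 well of 9 that overlapped the Empty range, and well a was the highest of its line in all 4 lines. GATA4 was called lower in Z2 (log2 fold change -0.40 ± 0.114, adjusted p = 0.0202), Z5 (-0.39 ± 0.114, 0.0331) and the mean (-0.31 ± 0.091, 0.0236), and not in Z9 (-0.13 ± 0.113, 0.473). The direct differences of Z9 minus Z2 (0.28 ± 0.114, adjusted p = 0.158) and Z9 minus Z5 (0.26 ± 0.114, 0.303) were not called in the fit of line means.

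These GATA4 calls were lost when single wells were left out of that fit. Without Empty a, none was made (mean -0.21, adjusted p = 0.175; Z2 -0.30, 0.0877; Z5 -0.29, 0.141). The mean was also lost without Z2 b (-0.28, adjusted p = 0.0547), the Z2 call without Z2 b (0.118) or Z2 c (0.0728), and the Z5 call without Z5 b (0.134) or Z5 c (0.118).

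GATA6, on chromosome 18 (chr18:22169589-22202528, plus strand), was measured at 205 to 406 counts per library. It had 4.62, 5.13 and 5.12 CPM in Z2, 4.79, 4.66 and 4.65 CPM in Z5, 3.78, 4.08 and 4.5 CPM in Z9, and 7.73, 6.45 and 6.22 CPM in Empty. The 9 wells of the labelled lines were all below the Empty wells, as for 8.31% of all tested genes, and Z9 held the 3 lowest values. GATA6 was the 1 factor of the 8 called in each line, with log2 fold changes of -0.45 ± 0.108 in Z2 (adjusted p = 0.00587), -0.53 ± 0.108 in Z5 (0.00288) and -0.72 ± 0.109 in Z9 (1.6e-04), and 3.8% of tested genes were called lower in each of the 3 lines. The mean was -0.57 ± 0.085 (adjusted p = 1.2e-04, fold 0.675, 95% confidence interval 0.596 to 0.765). All these calls were made with any 1 library left out, at adjusted p up to 0.0432 in Z2, 0.0246 in Z5, 0.00157 in Z9 and 0.00273 in the mean. These 3 comparisons share the Empty wells, and without Empty a the mean was -0.47.

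The GATA6 promoter (chr18:22169339-22169638, plus strand) is shown as that of the factor called in each line. Capitals mark CCAAT, the letters of the NF-Y box, at -92 from the start, and 34.6% of all promoters of the table hold those letters on either strand.
GATA6: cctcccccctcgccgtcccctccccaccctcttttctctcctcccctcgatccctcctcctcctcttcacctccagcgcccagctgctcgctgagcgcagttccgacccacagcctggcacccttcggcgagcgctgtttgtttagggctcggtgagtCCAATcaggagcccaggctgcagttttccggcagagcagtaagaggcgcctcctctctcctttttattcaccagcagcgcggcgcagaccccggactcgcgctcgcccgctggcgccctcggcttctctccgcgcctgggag
GATA6-AS1, a divergent non-coding gene that overlaps 436 bases of GATA6, had 1 to 14 counts per library, and its log2 fold change was -0.75 ± 0.509 (adjusted p = 0.299). The ratio of GATA6 to GATA4 counts averaged 0.156 in Z2, 0.145 in Z5, 0.106 in Z9 and 0.158 in Empty. The log2 difference between the 9 wells and the Empty wells was -0.26, within the spread of the wells (SD 0.325 in the 9 wells; exact permutation p = 0.25).

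ONECUT1, on chromosome 15 (chr15:52755053-52790336, minus strand), had 9.36, 9.49 and 9.54 CPM in Z2, 10.8, 10.9 and 9.47 CPM in Z5, 13.6, 10.6 and 9.76 CPM in Z9, and 9.03, 10.1 and 9.83 CPM in Empty. The groups overlapped, with no well below the Empty range and 4 above it, and Z9 a was the highest. No comparison was called, with log2 fold changes of -0.030 ± 0.106 in Z2, 0.10 ± 0.106 in Z5 and 0.22 ± 0.105 in Z9 (adjusted p = 0.871, 0.563 and 0.147). Its relative ONECUT3, at 1.07 CPM or less in the mean of any line, rose by 1.36 on the log2 scale over the mean (adjusted p = 4.4e-04).

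**Figure D3:**
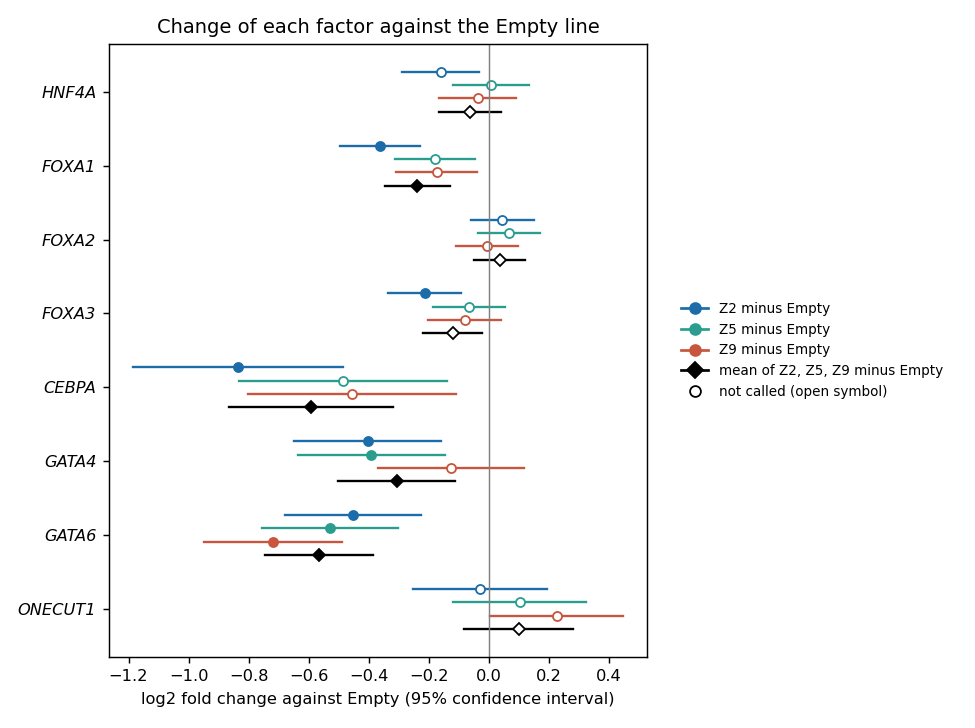
Log2 fold change against Empty (horizontal axis) of each factor in Z2, Z5, Z9 and their mean, with 95% confidence intervals; filled symbols have an adjusted p under 0.05. GATA6 is filled in all 4 comparisons, CEBPA and FOXA1 in Z2 and the mean, GATA4 in Z2, Z5 and the mean, and FOXA3 in Z2.

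Counted by line, 5 of 8 factors were called lower in Z2, where 11.5% of tested genes were, 2 of 8 in the Z5 line (6.68% of tested genes) and 1 of 8 in Z9 (9.58%). Calls in either direction covered 23.9% of tested genes in Z2, 15% of them in Z5 and 19.2% of them in Z9. The median log2 fold change of the 8 was -0.29 in Z2, -0.12 in Z5 and -0.10 in Z9, while the median of all tested genes was 0.0035, 0.0035 and 0.0084. The lines themselves were then compared. In edgeR, 0 of 8 factors were called in Z5 minus Z2 (0.00654% of tested genes called), 0 of 8 in Z9 minus Z2 (5.17%) and 0 of 8 in Z9 minus Z5 (1.52%), and the DESeq2 Wald test also called 0 in each. At an unadjusted p under 0.05 there were 3, 6 and 1. The share of all tested genes at that threshold is not given here, so these counts have no background. In the fit of line means, the differing counts of calls by line are therefore not shown to be differences between the lines. A block for the replicate letter did add calls in Z9 minus Z2 and in Z9 minus Z5, which are given in the last section. Left-out libraries added calls: GATA4 (0.39, adjusted p = 0.0313) and FOXA3 (0.18, 0.0445) in Z9 minus Z2 without Z2 a, and FOXA1 (0.19, 0.0474) in Z9 minus Z2 without Z5 a. With wells summed and lines as units, where the Empty line is a lone unit, CEBPA (adjusted p = 0.0328) and GATA6 (0.0273) were called over the mean of the lines, and FOXA1 (0.149) and GATA4 (0.141) were not.

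**Figure D4:**
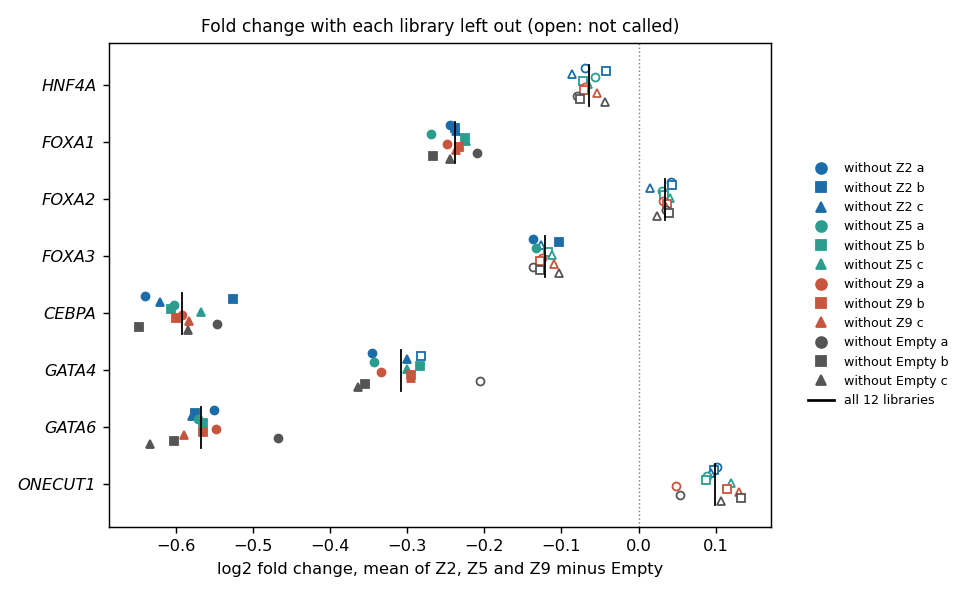
Log2 fold change of the mean of Z2, Z5 and Z9 minus Empty (horizontal axis) with each library left out in turn, 1 symbol per omitted library, beside a bar for all 12 libraries; open symbols were not called. GATA4 stands at -0.21 without Empty a and at -0.31 with all 12 libraries, whereas GATA6 and CEBPA remain below -0.46 throughout.

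To set the factors beside each other, levels were divided by the length of the union of their exons. In Empty, FOXA3 (46.5 CPM per kilobase), HNF4A (44.0) and CEBPA (43.5) stood highest, and the wells of neighbours in this order overlapped. FOXA2 (24.0), FOXA1 (20.0), GATA4 (9.66), ONECUT1 (2.51) and GATA6 (1.72) followed. In Z2, CEBPA stood at 24.4 CPM per kilobase, beside FOXA2 at 24.7 with overlapping wells, below FOXA3 (40.1) and HNF4A (39.3). CEBPA was at 31.1 in Z5 and 31.7 in Z9, between HNF4A (44.2 and 42.8) and FOXA2 (25.2 and 23.9). ONECUT1 and GATA6 were the lowest in every line. The order depends on the length used: by mean transcript length HNF4A came first in every line, and FOXA1 stood above CEBPA and FOXA2 in every line. In Empty, FOXA1 was then at 62.7 CPM per kilobase, CEBPA at 43.5, GATA4 at 27.7 and FOXA2 at 25.9.

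Beside these factors, 33 other liver-enriched transcription factors were looked at, of which 32 were tested. Over the mean of the lines, 7 rose and 7 fell, against 13% and 12.6% of all tested genes, and their median log2 fold change was -0.022. KLF9, a glucocorticoid- and thyroid hormone-responsive zinc-finger factor, averaged 4.12 ± 0.206 CPM in Z2, 3.48 ± 0.372 in Z5, 3.39 ± 0.111 in Z9 and 1.17 ± 0.157 in Empty (SD, n = 3 wells each; log2 fold change 1.64, adjusted p = 3.6e-08). NR2F1, an orphan nuclear receptor, rose by 0.37 on the log2 scale (adjusted p = 5.0e-06). NR0B2, the small heterodimer partner that represses bile acid synthesis, fell by 0.45 on that scale (adjusted p = 1.9e-04), and ZHX2, a repressor of AFP in the mouse liver, fell by 0.36 (3.9e-05).

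CEBPA's relative CEBPD was called higher in Z2 (log2 fold change 0.29, adjusted p = 0.00507) and Z5 (0.26, 0.0148), and was -0.12 in Z9 (0.242). CEBPD was picked from this list after its values were seen.

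**Figure D5:**
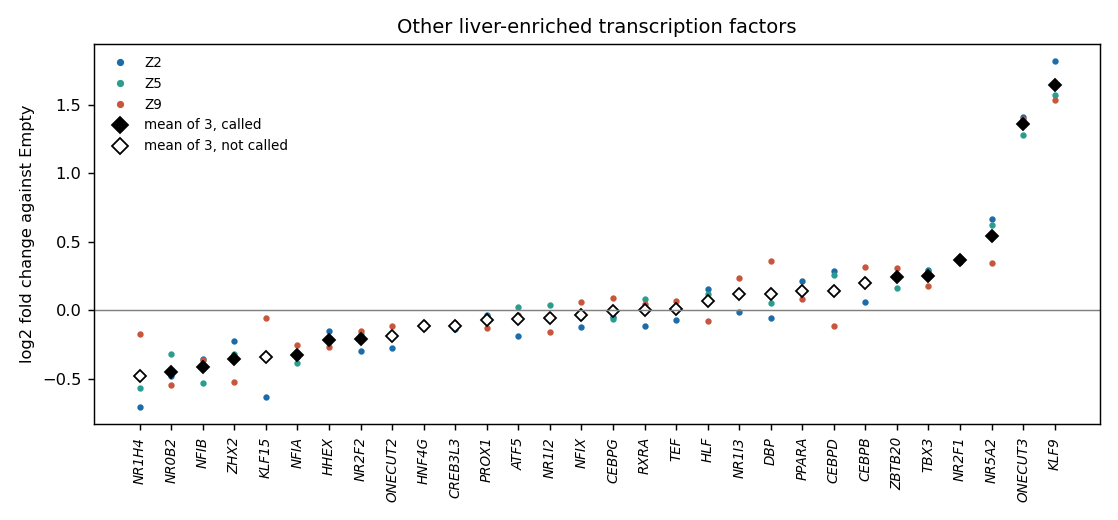
Log2 fold change against Empty (vertical axis) of 30 of the 32 tested other liver-enriched transcription factors, in order of the mean of the lines; dots are Z2, Z5 and Z9, diamonds the mean, filled where the adjusted p is under 0.05. KLF9 and ONECUT3 lie far above the others, and 6 of the 30 are filled on each side of 0.

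GATA4 and GATA6 have relatives and FOG partners (zinc-finger cofactors), and 5 of the 10 listed passed the filter. GATA2, known from blood and endothelium, fell in each line, with 9.61 ± 1.52 CPM in Z2, 10.7 ± 1.62 in Z5, 10.8 ± 0.665 in Z9 and 15.4 ± 1.79 in Empty (log2 fold change of the mean -0.57 ± 0.096, adjusted p = 4.0e-04). ZFPM1 (FOG1) rose by 0.15 on the log2 scale (0.0219) and GATAD1 by 0.12 (0.0324), and the other 2 tested, GATAD2A and GATAD2B, were not called. ZFPM1 was not called without any 1 Empty well (adjusted p = 0.0608 to 0.111), nor GATAD1 (0.0665 to 0.146), which was also not called without Z5 b (0.0620), Z5 c (0.0623) or Z9 b (0.0562). Of 26 tested forkhead symbols outside the FOXA genes, 3 rose and 3 fell over the mean, near the 13% and 12.6% of all tested genes. These were chosen by symbol and include non-coding antisense genes, also among the 3 that fell. Those that rose were FOXP4 (log2 fold change 0.21, adjusted p = 9.3e-04), FOXO3 (0.21, 0.00136), which may share reads with its near copy FOXO3B, and FOXO4 (0.28, 0.00357). FOXJ1, a factor of ciliated cells, fell by 0.67 (0.00217).

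The factors act through coactivators and corepressors, of which 16 were listed and tested: 3 rose and 3 fell over the mean of the lines, near the 13% and 12.6% of all tested genes, with a median log2 fold change of 0.056. PPARGC1A, a coactivator of HNF4A in gluconeogenesis, averaged 38.3 ± 2.89 CPM in Z2, 36.2 ± 1.64 in Z5, 39.1 ± 5.72 in Z9 and 26.7 ± 2.24 in Empty (log2 fold change 0.50, adjusted p = 1.8e-04). PPARGC1B fell by 0.58 on the log2 scale (2.0e-04) and NCOA3 by 0.18 (0.00563), while NCOA1 rose by 0.35 (3.1e-04) and TLE3 by 0.22 (0.00493). NCOA3 was not called without Empty a (-0.15, adjusted p = 0.0665).

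Of 36 genes known as targets of these factors in the liver, 32 were tested, and over the mean of the lines 11 rose and 5 fell, against 13% and 12.6% of all tested genes, with a median log2 fold change of 0.13 against 0.0029 for all tested genes. By line, 9 rose and 3 fell in Z2, where 12.4% of all tested genes were called higher and 11.5% lower, 12 rose and 3 fell in Z5 (8.27% and 6.68%), and 7 rose and 6 fell in Z9 (9.66% and 9.58%). ALB, the classic target of CEBPA and FOXA proteins, averaged 11520 ± 790 CPM in Z2, 11480 ± 635 in Z5, 11970 ± 496 in Z9 and 17530 ± 797 in Empty (log2 fold change -0.59, adjusted p = 3.1e-07). APOA4, a lipoprotein gene bound by HNF4A, fell by 1.07 on the log2 scale (1.8e-08).

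G6PC and AGT moved the other way. G6PC, the last enzyme of gluconeogenesis and a target of HNF4A with PPARGC1A, averaged 4.97 ± 0.952 CPM in Z2, 7.53 ± 2.17 in Z5, 7.64 ± 0.384 in Z9 and 2.22 ± 0.139 in Empty (log2 fold change 1.57, adjusted p = 8.9e-06). HP, an acute-phase gene with C/EBP sites, rose by 0.64 on the log2 scale (2.4e-06), and AGT, the angiotensin precursor, by 0.43 (1.4e-05). ALB is also among the hepatocyte markers, of which 4 rose and 2 fell over the mean, so the lists are not independent of each other.

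Markers of other liver cell types were given beside the factors because FOXA, GATA and ONECUT genes are also used outside hepatocytes. The 6 cholangiocyte markers summed to 1503 to 1723 CPM in Z2, 1490 to 1574 in Z5, 1423 to 1616 in Z9 and 1192 to 1299 in Empty. Of the 4 tested, SPP1 was called (log2 fold change 0.87), KRT19, EPCAM and SOX9 were not, and KRT7 and CFTR were under 1 CPM in every library. The 7 stellate cell and fibroblast markers summed to 42.5 to 56.5 CPM in Z2, Z5 and Z9 and 45.9 to 48.2 in Empty, with 4 of 7 under 1 CPM in every library. COL1A1 was called lower, with a log2 fold change of -0.70, and was at -0.37 without Empty a (adjusted p = 0.390) and not called without Z2 c, Z5 a, Z5 c, Z9 a or Z9 b either (0.0588 to 0.0689).

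The 6 endothelial markers summed to 7.0 to 9.20 CPM in the labelled lines and 6.54 to 7.09 in Empty, with 4 of 6 under 1 CPM in every library, and CDH5 was called higher (log2 fold change 1.67). The 6 immune cell markers summed to 46.7 to 74.1 CPM in the labelled lines and 43.5 to 53.7 in Empty, and the 2 tested, CD68 and CD14, were not called (adjusted p = 0.113 and 0.781). The part of these markers in the results for the 8 factors was not tested.

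Genes near the factors on the chromosome were counted within 1 Mb on either side, and 13% of all tested genes were called higher and 12.6% lower. CEBPA had 19 tested neighbours, of which 2 were called higher and 1 lower over the mean (median log2 fold change -0.0078), and GATA6 had 8, with 1 higher and 1 lower (median -0.041). Around FOXA1, 1 of 6 was called higher, and around GATA4 2 of 11 were. FOXA3 had 54 neighbours, 7 called in each direction, and HNF4A had 27, with 4 higher and 3 lower. These shares are near those of all genes or rest on few neighbours. LINC00261, a non-coding gene next to FOXA2, had a log2 fold change of 0.064 ± 0.067 (adjusted p = 0.525), and HNF4A-AS1, antisense within HNF4A at 122 to 247 counts per library, 0.092 ± 0.152 (0.699).

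The protein-coding genes with a pattern most like each factor over the 12 libraries were found by Pearson's r of log2 CPM, as a description in which libraries of a line share that line. For CEBPA they were GPATCH3 (r = 0.980) and ARFGAP2 (0.979), for GATA6 FAM98A (0.969) and NDUFS5 (0.967), for GATA4 ADCK3 (0.961) and NFKBIA (0.960), and for FOXA1 CDK12 (0.949) and FOXRED1 (0.944). FOXA3 was most like TRIM41 (0.949) and TIMM44 (0.948), HNF4A most like EXOC3L4 (0.952) and PRODH2 (0.945), ONECUT1 most like JMJD8 (0.874) and SYNJ2 (0.848), and FOXA2 most like ASB8 (0.839) and NONO (0.835). Without Z2 b, r was 0.857 for EXOC3L4 and 0.865 for PRODH2 with HNF4A, and 0.888 for TRIM41 and 0.885 for TIMM44 with FOXA3. For the other factors it moved less, in either direction, as to 0.957 for GPATCH3 with CEBPA and 0.871 for NONO with FOXA2. Among the factors themselves, FOXA3 and CEBPA had the highest r over the 12 libraries (0.901), but without Z2 b it was 0.783, below FOXA1 and CEBPA (0.853) and FOXA1 and FOXA3 (0.851). The r of HNF4A and CEBPA was 0.759, and 0.390 without Z2 b. GATA6 and ONECUT1 had the lowest r over the 12 libraries (-0.59), and without Z2 b theirs was -0.596, beside -0.601 for FOXA2 and GATA4.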

How the data were processed

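The authors deposited raw read counts, whole numbers under gene symbols, for the 12 libraries. The authors used STAR, featureCounts and the hg38 genome, per the submitters' processing notes, and no source used here gives their versions, the gene annotation or the strand setting, so reads of overlapping genes on opposite strands cannot be told apart. The columns were mapped to lines by their titles.

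The test was the quasi-likelihood test of edgeR 4.0.16 (R 4.3.3), after filterByExpr by line and TMM scaling, from a robust fit of 4 line means. Every comparison came from that fit to 12 libraries and uses its common spread. P-values were adjusted over all 15289 tested genes, and an adjusted p under 0.05 is a call. Levels are CPM on TMM-scaled library sizes. Totals of 50864744 to 65428204 counts give the 8 factors counting errors of 0.731% to 6.59% of a level, above the observed spread of wells in 5 of 32 pairs of factor and line. Ratios of counts were compared by exact permutation over wells. The correlations use log2 CPM with a prior count of 2. The fit was tested on simulated counts. Alternatives were DESeq2 1.42.0, other filters, a block for the replicate letter, fits of the compared lines alone, lines as units, and each library left out; likeness without Z2 b and the comparison with genes of like GC content were added after the data were seen.

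The 8 factors, the gene lists and the tests were chosen with earlier results of these data known, so the lists are not independent evidence. The named genes are the 8 factors, ZHX3, up to 5 called genes per list with the smallest adjusted p over the mean of the lines (4 for forkhead symbols), the antisense partners, and 2 genes most like each factor. Genes outside this rule are CEBPD, which is marked, and markers or relatives named to complete a short list. Positions and promoters are from RefSeq (GRCh38.p14), and transcript lengths from GENCODE release 29, which may differ from the authors' annotation. Some genes of the lists are counted but not reported here. The promoter table matched 6 of the 8 factors.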

Additional observations from a re-analysis of the deposited data

How the results depend on the processing

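Of 192 log2 fold changes of the 8 factors under settings other than leaving out a library, 178 kept direction and side of the threshold, 10 gained a call, 3 lost it and 1 reversed; of 384 with 1 library left out, 359 kept both, 12 gained, 8 lost and 5 reversed. The reversals were of values near 0: HNF4A in Z5 was -0.0013 without the filter, -0.0086 without Empty a, -0.0054 without Empty b and -0.015 without Z5 b, ONECUT1 in Z2 was 0.0033 without Empty b, and FOXA2 in Z2 was -0.0077 without Z2 c. Over the 12 omissions these ranged from -0.015 to 0.032, from -0.075 to 0.0033 and from -0.0077 to 0.070.

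The number of factors called in Z9 minus Empty was 2 with DESeq2 and 3 in a fit of those lines alone, against 1. In Z5 minus Empty it was 1 without the filter and 3 with DESeq2, the 1 CPM filter, the replicate block or those lines alone, against 2; in Z2 minus Empty it was 6 with DESeq2 or without the filter, against 5, with HNF4A added (adjusted p = 0.0390 and 0.0487); and over the mean 2 with lines as units, against 4. With the replicate block it was 2 in Z9 minus Empty, 2 in Z9 minus Z2 (FOXA1 and GATA4) and 1 in Z9 minus Z5 (GATA4), and GATA4 had adjusted p = 2.7e-05 in Z2, 4.9e-05 in Z5 and 3.6e-05 in the mean. The labels do not say what the letters share, and deviations correlated over 0.1 in 5 of 18 same-letter pairs, short of every pair, so the wells were not treated as paired. All 6 pairs of a wells were positive (0.0388 to 0.173), 4 of them over 0.1, against 2 of 36 pairs of different letters. With 1 library left out, the factors called ranged from 4 to 5 in Z2 minus Empty, 1 to 4 in Z5 minus Empty, 1 to 3 in Z9 minus Empty, 3 to 5 over the mean and 0 to 2 in Z9 minus Z2. DESeq2 called CEBPA in Z5 and Z9 (adjusted p = 0.0245 and 0.0319). Over all genes, 1016 were called over the mean with lines as units and 2107 without Empty a, against 3911. Leaving out Empty a gave 2130 called genes in Z2 (against 3654) and 1720 in Z9 (against 2941), and leaving out Z5 c gave 1087 in Z5 (against 2286). Between lines, Z9 minus Z2 had 1512 with the block, 1509 with DESeq2, 32 in a fit of those lines alone, and 75 (without Z9 b) to 2399 (without Z2 a) with 1 library left out, against 790; Z9 minus Z5 had 37 (without Z5 c) to 653 (without Z2 b), against 232; and Z5 minus Z2 had 153 without Z2 a, against 1. The log2 ratio differences ranged from -0.31 to -0.24 for FOXA1 to FOXA2, from -0.17 to -0.13 for FOXA3 to FOXA2 (-0.17, adjusted p = 0.0455, without Z9 b) and from -0.31 to -0.18 for GATA6 to GATA4. Causes were not tested. With 1 library left out, 4 to 9 of the other liver-enriched factors rose and 5 to 10 fell, and 9 to 15 of the liver target genes rose and 3 to 5 fell; with lines as units these were 3 and 2, and 6 and 3. Of the genes named outside the 8 factors, ZHX2, ZFPM1, GATAD1, NCOA3, TLE3, FOXP4, FOXO3, FOXO4, FOXJ1 and COL1A1 were not called with lines as units (adjusted p = 0.0676 to 0.502).

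GATA6, at 205 to 406 counts, and ONECUT1, at 460 to 736, were the least deeply measured factors.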
